A study of Arabidopsis thaliana with 6 samples.

Results

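The 10 genes described here encode enzymes, carriers and a laccase of the proanthocyanidin pathway of Arabidopsis thaliana. They are TT4, TT6, TT7, TT3, LDOX, BAN, TT12, TT19, AHA10 and TT10, and they were picked by locus identifier for their known steps in the pathway. Earlier results of these data were known when they were picked. They are 10 of the 31608 genes and loci in the deposited tables, and all 10 were among the 25434 that had counts and were tested by the authors. PolyA RNA was sequenced from siliques, the fruits with their developing seeds, of the mee45-1 mutant and of Col-0, the wild-type accession, 4 days after pollination. There were 3 libraries of each genotype, 6 in all. The labels name the source as silique and the tissue as seed, and they do not describe the lesion of mee45-1 or say how many plants made up a library. What the authors deposited are averages, 1 per genotype, of its 3 libraries, so no library has a value of its own and no spread between libraries can be given.

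Proanthocyanidins are flavonoid polymers, also called condensed tannins, which accumulate in the endothelium, the innermost layer of the seed coat, and turn the coat brown when they are oxidised. Cytosolic enzymes build the flavan-3-ol unit from a chalcone, and the unit is glycosylated and moved into the vacuole. Mutants that lack a step have pale seeds, from which most of these genes take the name TRANSPARENT TESTA (TT). Enzymes upstream of dihydroflavonols are shared with flavonols and anthocyanins, and the reductase encoded by BAN commits the pathway to proanthocyanidins. A complex of the MYB factor TT2, the bHLH factor TT8 and the WD40 protein TTG1 is known to activate the late genes of the pathway.

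Mean depth per library was 20530953 estimated counts in mee45 and 20242476 in Col. MEE45 (AT4G00260), the gene named in the mutant's label, had 3 counts summed over the mee45 libraries and 62 over the Col libraries, a ratio of 0.0477 at equal depth (exact 95% interval for counting error 0.00958 to 0.146). Over the 20267 genes with at least 10 mean counts in both genotypes, the log2 fold change had a median of 0.0051. Markers of the silique wall, of the seed coat, of the embryo and of the endosperm all had counts in both genotypes, so both fruit and seed tissue were present. In such bulk tissue, fewer cells of a type and less RNA per cell cannot be told apart. Where a gene is said below to have risen or fallen in mee45, the authors' deposited table gives it an adjusted p under 0.05. Fold changes are log2 ratios of mean FPKM, mee45 over Col, where FPKM is a level scaled by transcript length and by depth. Intervals in brackets are exact 95% intervals of the ratio of summed counts at equal depth, and they cover counting error only.

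In mee45 siliques the proanthocyanidin genes were mostly at or above their Col level, and the laccase gene TT10 was far below it. Of the 10 genes, 4 rose, which were TT4, TT6, TT12 and AHA10, 1 fell, which was TT10, and 5 did not pass the test. Among all genes tested, 6.67% were called higher and 9.15% lower. The log2 fold change was above 0 for 9 of the 10 genes, against 51.0% of all genes with at least 10 mean counts in both genotypes, and the median over the 10 was 0.30. TT7 is among those 9 with a value of only 0.01. The genes were picked with earlier results of these data known, so their shared direction is not independent evidence. Together the 10 genes took 0.627% of all counts in mee45 and 0.544% in Col. Without TT10 these shares were 0.609% in mee45 and 0.488% in Col. The 2 carriers or pumps that rose had larger changes than either of the 2 early enzymes that rose, and no late enzyme passed the test. With an adjusted p under 0.01 in the authors' deposited table, 3 of the 10 were higher (4.24% of all tested genes) and 1 lower (6.45%). With an adjusted p under 0.05 there and a change of at least 1.5-fold, 2 were higher (4.02%) and 1 lower (6.88%). With at least 2-fold, 0 were higher (1.93%) and 1 lower (4.42%). By the unadjusted p under 0.05 there, 7 were higher (11.4%) and 1 lower (13.5%).

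**Figure D1:**
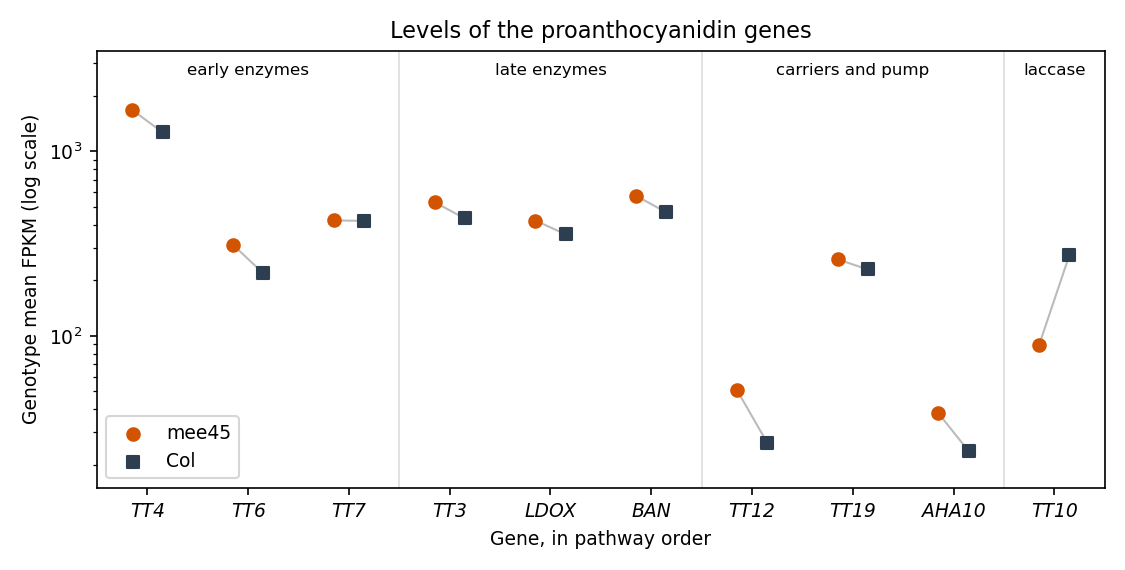
Genotype mean FPKM of each gene on a log axis, in pathway order, with mee45 as circles on the left and Col as squares on the right of each pair, joined by a grey line; each point is the authors' mean over 3 libraries and has no error bar. The mee45 point lies above or level with the Col point for 9 genes, and for TT10 it lies below, at 89.7 against 274 FPKM.

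The order of the levels was nearly the same in both genotypes. TT4 was the highest of the 10 genes, at 1673 FPKM in mee45 and 1264 FPKM in Col, which placed it 17th in mee45 and 23rd in Col among the 25434 tested genes. BAN, TT3, TT7 and LDOX followed in that order in both genotypes, all between 421 and 573 FPKM in mee45 and between 354 and 466 FPKM in Col. TT12 and AHA10 were the lowest in both, AHA10 at 38.0 FPKM in mee45 and 23.7 FPKM in Col. TT10 stood 8th of the 10 in mee45 and 6th in Col. Which neighbours in this order differ beyond the spread between libraries cannot be said from genotype means.

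The early enzymes make the dihydroflavonols. TT4 (AT5G13930) encodes chalcone synthase, which makes the first flavonoid of the route, and lies on chromosome 5 from 4488476 to 4490264 in TAIR10.1, with 2 exons. It had a mean of 51213 counts in mee45 and 38256 in Col. It rose by 0.40 on the log2 scale, or 1.32-fold (1.31 to 1.33) (authors' deposited table, adjusted p = 0.0104). TT6 (AT3G51240), flavanone 3-hydroxylase, lies on chromosome 3 from 19025192 to 19026872. It had 9628 mean counts in mee45 and 6654 in Col, and rose 1.43-fold (1.40 to 1.45) (authors' deposited table, adjusted p = 0.000386). TT6 shares 1588 bases with AT3G51238, an lncRNA annotated on the other strand that was not analysed here, so its reads may include some from that RNA. TT7 (AT5G07990), the cytochrome P450 that adds the 3'-hydroxyl group, lies on chromosome 5 from 2560328 to 2563137. It had 15908 mean counts in mee45 and 15616 in Col, the closest values of the 10 genes, with a ratio of 1.01 (0.992 to 1.02). The authors' deposited table gives an adjusted p of 1. The TT4 level was 3.97 times that of TT7 in mee45 and 3.02 times in Col.

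The step between TT4 and TT6 belongs to chalcone isomerase, TT5 (AT3G55120), which is not 1 of the 10 genes. TT5 had 220 FPKM in mee45 and 173 FPKM in Col and rose 1.28-fold (1.24 to 1.31) (authors' deposited table, adjusted p = 0.0337). CHIL (AT5G05270), a non-catalytic relative that aids chalcone synthase, had 436 FPKM in mee45 and 367 FPKM in Col and did not pass the test (authors' deposited table, adjusted p = 0.170). So of the 2 chalcone isomerase genes listed, 1 was called higher, against 6.67% of all tested genes.

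The late enzymes turn dihydroflavonols into epicatechin, and their 3 log2 fold changes lay between 0.25 and 0.30. TT3 (AT5G42800), dihydroflavonol 4-reductase, lies on chromosome 5 from 17164093 to 17166032. It had 14786 mean counts in mee45 and 11861 in Col, a ratio of 1.23 (1.21 to 1.25), and the authors' deposited table gives an adjusted p of 0.0925. LDOX (AT4G22880), the dioxygenase that makes anthocyanidins, lies on chromosome 4 from 12004726 to 12006209. It had 10879 mean counts in mee45 and 8998 in Col, a ratio of 1.19 (1.17 to 1.21) (authors' deposited table, adjusted p = 0.191). BAN (AT1G61720), anthocyanidin reductase, lies on chromosome 1 from 22790966 to 22792803. It had 14418 mean counts in mee45 and 11521 in Col, a ratio of 1.23 (1.22 to 1.25) (authors' deposited table, adjusted p = 0.0683). The unadjusted p of these 3 genes, 0.0175 for TT3, 0.0464 for LDOX and 0.0118 for BAN in the authors' deposited table, were each under 0.05. Their proportions to each other moved little: LDOX stood at 79.5% of the TT3 level in mee45 and at 82.0% in Col, both in FPKM.

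The carriers and the pump serve the vacuole. TT12 and AHA10 rose and TT19 did not pass the test; whether their changes differ from each other was not tested. TT12 (AT3G59030), a transporter of the MATE family in the tonoplast, lies on chromosome 3 from 21819040 to 21821440. It had 50.8 FPKM in mee45 and 26.4 FPKM in Col, and 1804 mean counts in mee45 against 924 in Col. The 1.93-fold rise (1.84 to 2.02) was the largest of the 10 genes (authors' deposited table, adjusted p = 2.84e-12), and 2.25% of genes with at least 10 mean counts in both genotypes had a higher fold change. The last 92 bases of the TT12 locus are shared with AT3G59040 on the other strand. That gene had 651 mean counts in mee45 and 537 in Col, and the sources used here do not say whether counting used strand. AHA10 (AT1G17260), a P-type proton pump that energises uptake into the vacuole, lies on chromosome 1 from 5904058 to 5908898 and has 21 exons. It had 2220 mean counts in mee45 and 1366 in Col, and rose 1.60-fold (1.54 to 1.67) (authors' deposited table, adjusted p = 2.03e-07). TT19 (AT5G17220), a glutathione transferase thought to carry flavonoids through the cytosol, lies on chromosome 5 from 5658416 to 5659661. It had 259 FPKM in mee45 and 229 FPKM in Col, a ratio of 1.13 (1.11 to 1.17), and did not pass the test (authors' deposited table, adjusted p = 0.440). The TT19 locus shares 108 bases with PSY (AT5G17230), a carotenoid synthesis gene on the other strand with 4084 mean counts in mee45 and 3384 in Col. Set against BAN in the same genotype, TT12 stood at 8.87% of the BAN level in mee45 and 5.66% in Col, AHA10 at 6.63% in mee45 and 5.09% in Col, and TT19 at 45.2% in mee45 and 49.1% in Col.

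TT10 (AT5G48100), the laccase that oxidises proanthocyanidins in the maturing coat, went the other way. It lies on chromosome 5 from 19489327 to 19492744 and has 6 exons. It had 89.7 FPKM in mee45 and 274 FPKM in Col, a ratio of 0.327 (0.323 to 0.337), and the authors' deposited table gives an adjusted p of 2.36e-12. TT10 was the only member of the 10 that the authors' deposited table marks as significant, a mark that it gives to 1613 genes, all with a change of at least 2-fold. Of the genes with at least 10 mean counts in both genotypes, 1.55% had a lower fold change than TT10. The TT10 level was 15.6% of the BAN level in mee45 and 58.9% in Col, so relative to the reductase the laccase transcript was lower by a factor of 3.76 in mee45. In mee45, TT10 ranked 1418th of the tested genes by FPKM, and in Col it ranked 313th.

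**Figure D2:**
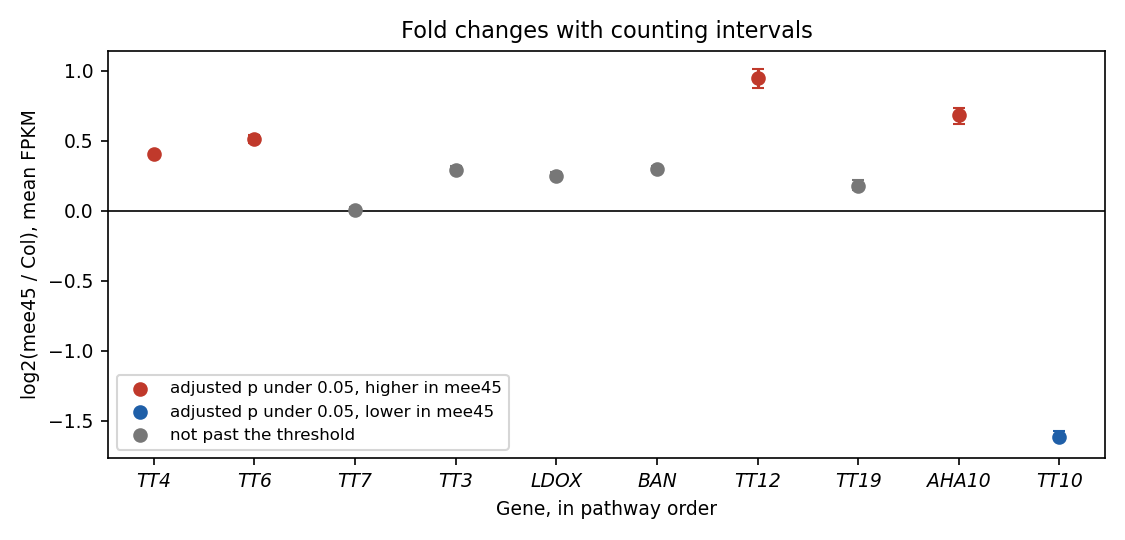
Log2 ratio of mean FPKM, mee45 over Col, for each gene in pathway order; bars are exact 95% counting intervals of the ratio of summed counts at equal depth and do not include the spread between libraries. Red points (TT4, TT6, TT12, AHA10) passed an adjusted p of 0.05 as higher and the blue point (TT10, at -1.61) as lower, while the grey points did not pass.

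**Figure D3:**
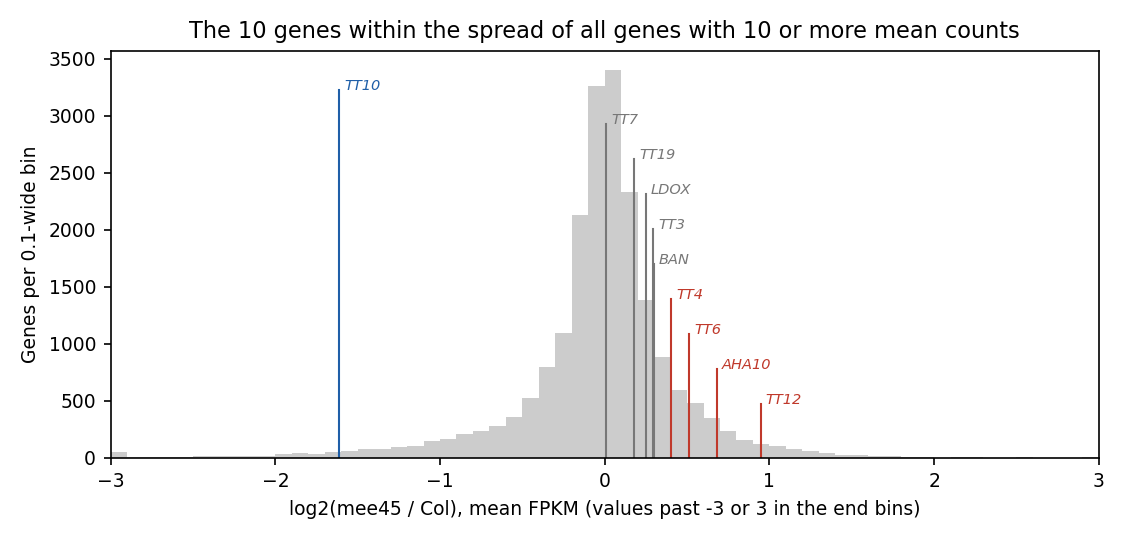
Histogram of the log2 fold change, mee45 over Col, of the 20267 genes with at least 10 mean counts in both genotypes, in grey, with the position of each of the 10 genes as a vertical line in the colours used for its call (red higher, blue lower, grey not past the threshold); line heights only separate the names. TT7 stands at the centre of the distribution, TT12 in its right flank with 2.25% of genes above it, and TT10 in its left flank with 1.55% below it.

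The 250 bases before each annotated start were read from the TAIR10.1 genome. They were searched on both strands for motifs of the kinds that bHLH and MYB factors are known to bind. The motifs were the G-box CACGTG, the E-box CANNTG, which includes the G-box, the MYB core CNGTTA, a further MYB core with the letters CNGTTG, the AC element ACCTACC, and a variant of that element with the letters ACCAACC. A match to the further MYB core can overlap an E-box. The sequences of 6 genes are printed here 5' to 3', those of the 4 genes with a G-box followed by those of the genes with the largest rise and the fall. Capitals mark G-box and MYB core matches. The windows are chr5:4488226-4488475 (plus strand) for TT4, chr3:19024942-19025191 (plus) for TT6, chr5:17166033-17166282 (minus) for TT3, chr1:22792804-22793053 (minus) for BAN, chr3:21818790-21819039 (plus) for TT12 and chr5:19492745-19492994 (minus) for TT10.
TT4: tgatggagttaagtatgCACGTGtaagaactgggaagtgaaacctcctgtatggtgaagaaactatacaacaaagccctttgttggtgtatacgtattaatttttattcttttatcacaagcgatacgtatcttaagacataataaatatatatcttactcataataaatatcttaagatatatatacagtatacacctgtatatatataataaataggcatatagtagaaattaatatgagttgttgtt
TT6: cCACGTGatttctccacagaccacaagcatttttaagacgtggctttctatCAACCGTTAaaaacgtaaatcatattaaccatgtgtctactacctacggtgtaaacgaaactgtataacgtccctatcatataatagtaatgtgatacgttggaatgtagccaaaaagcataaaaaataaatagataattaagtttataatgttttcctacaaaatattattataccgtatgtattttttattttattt
TT3: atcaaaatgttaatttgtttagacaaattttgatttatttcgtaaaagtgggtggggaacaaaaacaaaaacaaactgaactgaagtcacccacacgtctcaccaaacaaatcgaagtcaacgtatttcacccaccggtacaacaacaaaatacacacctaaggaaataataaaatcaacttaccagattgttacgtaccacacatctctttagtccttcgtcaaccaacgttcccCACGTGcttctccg
BAN: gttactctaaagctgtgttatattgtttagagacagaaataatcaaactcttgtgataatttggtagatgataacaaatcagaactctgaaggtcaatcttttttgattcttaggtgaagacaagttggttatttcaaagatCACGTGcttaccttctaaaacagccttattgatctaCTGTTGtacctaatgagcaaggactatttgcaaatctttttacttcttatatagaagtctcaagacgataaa
TT12: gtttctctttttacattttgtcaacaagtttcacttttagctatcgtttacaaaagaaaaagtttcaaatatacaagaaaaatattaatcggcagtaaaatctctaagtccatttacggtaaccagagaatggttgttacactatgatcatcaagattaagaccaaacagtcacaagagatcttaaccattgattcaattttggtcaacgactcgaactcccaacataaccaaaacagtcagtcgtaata
TT10: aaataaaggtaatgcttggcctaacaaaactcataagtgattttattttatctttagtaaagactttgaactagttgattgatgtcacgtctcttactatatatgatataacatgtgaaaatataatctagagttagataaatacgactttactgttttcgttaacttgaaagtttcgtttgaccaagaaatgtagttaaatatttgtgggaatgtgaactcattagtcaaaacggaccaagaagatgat

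A G-box was present in 4 of the 10 windows, those of TT4, TT6, TT3 and BAN, and in 6.49% of the 27443 windows of protein-coding genes. These 4 genes hold both called and uncalled members, TT4 and TT6 having risen and TT3 and BAN not having passed the test. Their G-boxes began 233 bases before the start in TT4, 249 in TT6, 14 in TT3 and 108 in BAN. In BAN a CNGTTG core followed, beginning 72 bases before the start. An E-box of any kind was present in 8 of the 10 windows, against 55.3% of all windows, and was lacking in LDOX and TT12. A CNGTTG core was present in TT6, LDOX, BAN and AHA10, 4 of 10 windows against 20.3% of all, and a CNGTTA core in TT6 and TT19, 2 of 10 against 26.6%. Neither AC element was found in any of the 10 windows; ACCTACC is present in 1.16% and ACCAACC in 2.69% of all windows. The window of TT12, the gene with the largest rise, held no match to any motif searched, and that of TT10 held a single E-box, which began 139 bases before the start. These matches describe the letters of the windows and do not show binding.

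**Figure D4:**
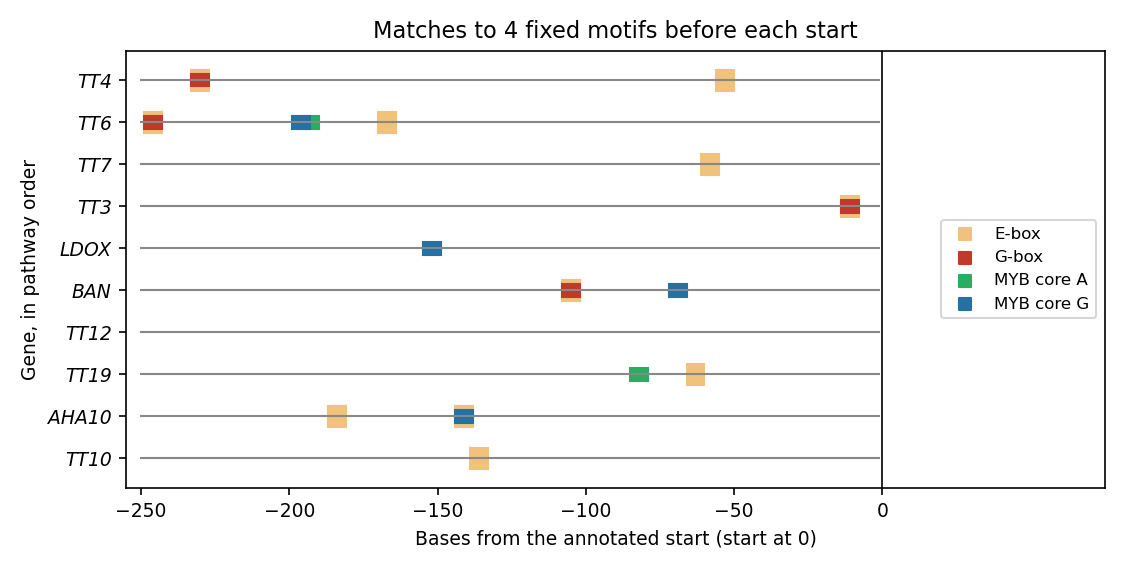
Matches to 4 of the motifs searched in the 250 bases before the annotated start of each of the 10 genes, placed by distance from the start; tan boxes are E-boxes, red G-boxes, green and blue the MYB cores ending in A and in G, drawn over each other where they overlap. G-boxes lie in the windows of TT4, TT6, TT3 and BAN at different distances, and the TT12 line is empty.

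The regulators of seed coat pigment went in both directions. Of 11 listed and tested, 3 rose, 1 fell and 7 were not called, with a median log2 fold change of 0.07. The shares over all tested genes were 6.67% higher and 9.15% lower, so 1 fall among 11 is near the share of all genes. TT1 (AT1G34790), a zinc finger factor, had 17.0 FPKM in mee45 and 11.0 FPKM in Col and rose 1.54-fold (1.41 to 1.69) (authors' deposited table, adjusted p = 0.000411). TT2 (AT5G35550), the MYB partner of the activating complex, had 38.6 FPKM in mee45 and 29.2 FPKM in Col and rose 1.32-fold (1.24 to 1.40) (authors' deposited table, adjusted p = 0.00887). EGL3 (AT1G63650), a bHLH relative of TT8, rose 1.41-fold (1.29 to 1.52) (authors' deposited table, adjusted p = 0.00631). TT8 (AT4G09820), the bHLH partner, fell to 43.6 FPKM in mee45, against 55.9 FPKM in Col, a ratio of 0.780 (0.755 to 0.814) (authors' deposited table, adjusted p = 0.0262). So the transcripts of the 2 DNA-binding partners TT2 and TT8 moved in opposite directions. The WD40 partner TTG1 had 29.4 FPKM in mee45 and 29.9 FPKM in Col and did not pass the test.

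The other regulators did not pass. MYB5 had 50.1 FPKM in mee45 and 50.7 FPKM in Col, TTG2 had 21.3 FPKM in mee45 and 20.3 FPKM in Col, and TT16, a MADS-box factor of endothelium identity, 14.6 FPKM in mee45 and 12.7 FPKM in Col. STK, a MADS-box factor of ovule identity known to repress BAN, had 212 FPKM in mee45 and 175 FPKM in Col (authors' deposited table, adjusted p = 0.101). MYBL2, a repressor of the activating complex, had 30.1 FPKM in mee45 and 35.9 FPKM in Col (authors' deposited table, adjusted p = 0.209). GL3 was near the lower end of detection, at 0.643 FPKM in mee45 and 0.703 FPKM in Col. Of 3 other seed coat pigment genes none passed. TT15 (AT1G43620), a sterol glucosyltransferase, had the smallest p of them, with 18.3 FPKM in mee45 and 16.8 FPKM in Col (authors' deposited table, adjusted p = 0.565).

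The upstream phenylpropanoid, flavonol and anthocyanin lists had medians nearer to 0 than the 10 proanthocyanidin genes, at 0.11 for the 7 tested anthocyanin genes. The anthocyanin median was -0.01 over the 6 genes with at least 10 mean counts in both genotypes. The 2 chalcone isomerase genes, described above, had a median of 0.30, like that of the 10 genes. Of 8 upstream phenylpropanoid genes, 1 rose, 1 fell and 6 did not pass, with a median of -0.01. Over all tested genes, 6.67% were called higher and 9.15% lower. 4CL3 (AT1G65060), the coumarate ligase isoform linked to flavonoids, rose 1.43-fold (1.38 to 1.48) (authors' deposited table, adjusted p = 0.000342). PAL4 (AT3G10340), a phenylalanine ammonia-lyase, fell to 56.8 FPKM in mee45, against 76.6 FPKM in Col (authors' deposited table, adjusted p = 0.00281). Of 9 flavonol genes none rose, 1 fell and 8 did not pass, with a median of -0.06. The gene that fell was MYB11 (AT3G62610), an activator of flavonol synthesis, at 24.3 FPKM in mee45 and 34.2 FPKM in Col (authors' deposited table, adjusted p = 0.00441). Of 7 tested anthocyanin genes none passed, and 2 more, MYB113 and MYB114, had no counts in either genotype. UGT75C1 (AT4G14090), an anthocyanin glucosyltransferase, had the smallest p of them, with 1.90 FPKM in mee45 and 1.22 FPKM in Col (authors' deposited table, adjusted p = 0.299). The 9 anthocyanin genes summed to 15.6 FPKM in mee45 and 15.7 FPKM in Col, against 4367 FPKM in mee45 and 3705 FPKM in Col for the 10 proanthocyanidin genes. TT4 alone made up 1673 FPKM of the latter sum in mee45 and 1264 FPKM in Col.

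Relatives of TT10, AHA10 and TT19 were listed for comparison. The shares to set beside each family's counts are those over all tested genes, 6.67% higher and 9.15% lower. Of 15 tested laccase genes other than TT10, 3 rose, 2 fell and 10 did not pass. LAC14 (AT5G09360) rose 1.82-fold (1.62 to 2.03) (authors' deposited table, adjusted p = 6.96e-05), and LAC6 (AT2G46570) rose by 1.32 on the log2 scale (adjusted p = 0.000284 there). LAC5 (AT2G40370) fell to 5.69 FPKM in mee45, against 11.4 FPKM in Col (authors' deposited table, adjusted p = 0.000115). All of these were far below TT10 in level; the laccases of highest level besides TT10, LAC4, LAC2 and LAC17, did not pass the test, LAC4 having 152 FPKM in mee45 and 145 FPKM in Col. TT10 was thus the laccase gene with the highest FPKM in Col, and in mee45 LAC4 stood above it. Of 10 proton pump genes other than AHA10, 1 rose, 1 fell and 8 did not pass, which is near the shares over all tested genes. AHA3 (AT5G57350) rose 1.29-fold (1.26 to 1.31), and AHA4 (AT3G47950) fell to 7.92 FPKM in mee45, against 16.6 FPKM in Col; the authors' deposited table gives adjusted p of 0.0138 for AHA3 and 5.62e-08 for AHA4. Of 7 phi-class glutathione transferase genes other than TT19, 1 rose, 4 fell and 2 did not pass, with a median of -0.51. The gene that rose, GSTF6, had the highest level of the 7, at 549 FPKM in mee45 and 413 FPKM in Col. Summed over the 7 genes, the level was 926 FPKM in mee45 and 912 FPKM in Col. GSTF7 (AT1G02920), GSTF8 (AT2G47730) and GSTF2 (AT4G02520) had log2 fold changes of -2.04, -0.55 and -0.99; the authors' deposited table gives adjusted p of 0.000282, 0.000495 and 0.00166. GSTF7 is a near copy of its neighbour GSTF6, so the split of reads between them is uncertain.

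Markers of the embryo and of the outer seed coat were mostly called lower in mee45, while those of the endosperm and the silique wall were split. The shares over all tested genes were 6.67% called higher and 9.15% called lower. Of 4 endothelium markers, which are regulators already described, TT1 and TT2 rose, TT16 and STK did not pass, and their summed level was 283 FPKM in mee45 and 228 FPKM in Col. STK, a factor of ovule identity, made up 212 FPKM of that sum in mee45 and 175 FPKM in Col. Of 4 outer seed coat markers, 3 fell and TTG2 did not pass, at 21.3 FPKM in mee45 and 20.3 FPKM in Col. The summed level of the 4 was 155 FPKM in mee45 and 307 FPKM in Col. The 3 that fell were GATL5 (AT1G02720), MUM4 (AT1G53500) and GL2 (AT1G79840), genes of mucilage and epidermis. Their log2 fold changes were -1.84, -1.16 and -0.69, and the authors' deposited table gives adjusted p of 3.30e-14, 1.26e-11 and 1.78e-07. All 5 embryo markers fell, and their summed level was 73.3 FPKM in mee45 and 150.3 FPKM in Col. L1L (AT5G47670), FUS3 (AT3G26790) and WOX8 (AT5G45980) had log2 fold changes of -1.88, -1.88 and -0.74; the authors' deposited table gives adjusted p of 2.97e-10, 2.45e-09 and 0.00244. Of 4 endosperm markers, AGL62 (AT5G60440) and PHE1 (AT1G65330) rose by 1.01 and 0.59 on the log2 scale, ZOU (AT1G49770) fell, at -0.93, and FIS2 did not pass. Their summed level was 40.3 FPKM in mee45 and 39.0 FPKM in Col. Of 6 silique wall markers, SHP1 (AT3G58780) and IND (AT4G00120) rose by 0.40 and 0.69 on the log2 scale, SHP2 (AT2G42830) fell, at -0.33, and 3 did not pass. Their summed level was 435 FPKM in mee45 and 417 FPKM in Col. No marker was at 0 in either genotype. The part of these tissue and layer differences in the proanthocyanidin values was not tested.

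**Figure D5:**
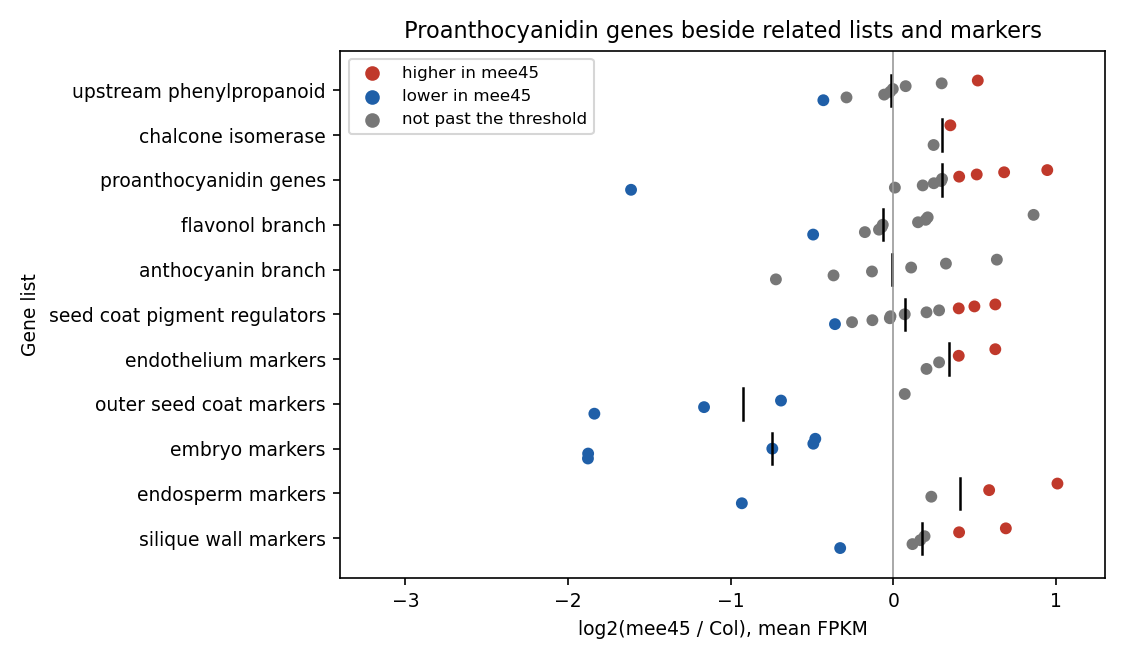
Log2 fold change of mean FPKM, mee45 over Col, of each gene with at least 10 mean counts in both genotypes, by list, with the list's median over the points shown as a black bar and points coloured by call (red higher, blue lower, grey not past the threshold). The proanthocyanidin genes lie between 0.01 and 0.95 apart from TT10 at -1.61.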

How the data were processed

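The authors deposited estimated counts and FPKM as means per genotype (mee45 and Col, 3 libraries each): 96.1% of the counts in either genotype fell within 0.01 counts of a multiple of a 3rd. Per the submitters' processing notes, edgeR, RSEM, Cufflinks, TopHat2 2.0.3.12, Bowtie2 2.2.8 and fastp 0.18.0 were used with genome build TAIR10, but their roles are not said. The authors' deposited table of the comparison also holds a log2 fold change, which is the log2 ratio of the mean FPKM values, a p-value, and an adjusted p, which matches Benjamini-Hochberg over the 25434 tested genes. The edgeR option behind these p-values is not stated in the sources used here.

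A test on counts per library could not be made from genotype means, so calls rest on the authors' adjusted p under 0.05. Fold changes were computed from FPKM, and exact (Clopper-Pearson) 95% intervals from 3 times the mean counts. Reads have no molecular identifiers, so intervals cover counting error only. Nothing says that the repeats came from separately grown plants, and the labels mention both 3 repeats and collection in duplicate. The spread between these libraries may thus be technical. How the p-values use that spread is not stated in the sources used here.

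The members and the gene lists were chosen with earlier results of these data known, so a list's direction is not independent evidence. Named genes are the 10 members, MEE45, all listed regulators, and per other list up to 3 called genes with the smallest p, or, with none called, the gene of smallest p; CHIL, LAC4, LAC2, LAC17, GSTF6, FIS2, MYB113, MYB114, the genes sharing bases with TT6, TT12 and TT19, and the genes of the closing observations were named after their values were seen. Coordinates, promoters and overlaps are from the RefSeq annotation of TAIR10.1, in which all 10 members were matched by locus tag; the deposited tables carry no coordinates. Where an annotated gene has several transcripts, the start is that of the gene. Scripts used python 3.11.15, numpy 2.4.6, pandas 2.3.3 and scipy 1.17.1. Only the counting interval and the Benjamini-Hochberg step were tested on simulated data, which held counting error and no spread between libraries.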

Additional observations from a re-analysis of the deposited data

How the results depend on the processing

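The fold changes of all 10 genes stayed within their counting intervals, and the sign of each was kept, when scaled by total counts, by median-ratio size factors, or as log2(FPKM + 1) or log2(FPKM + 0.1); this covers 40 values, and the 4 medians of the list moved by less than 0.1. The intervals are themselves built at equal total counts, so the folds scaled by total counts had to lie within them. No gene was below 23.7 FPKM in either genotype, so adding 1 or 0.1 could move the folds little. Agreement under these settings was thus largely fixed in advance. The calls depend on the threshold. Genes higher in mee45 numbered 4 at an adjusted p under 0.05, 3 at an adjusted p under 0.01 (TT4 was lost), 2 with a change of at least 1.5-fold as well (TT12 and AHA10), 0 with at least 2-fold, and 7 at an unadjusted p under 0.05 (TT3, LDOX and BAN added). Adjusting over the 21045 genes with a mean count of at least 10 in either genotype gave the same 4. TT10 was the single gene lower under all of these settings. In the related lists, 42 of 112 recounts differed from the main count by more than 1.5 times. No paired analysis was possible because the deposited values are genotype means, and for the same reason the planned edgeR, DESeq2, low-count filter, replicate block and leave-one-out settings were not run. Depth limits these genes little, as the lowest, TT12 in Col, had 924 mean counts, but no spread between libraries can be given.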

Other observations

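The genes that the deposited annotation places in the KEGG pathway Flavonoid biosynthesis were counted after the values of the 10 genes were seen. The pathway has 25 genes, of which 20 were tested and 6 are among the 10 described above. Of the 14 other tested genes, 1 was higher and 1 lower in mee45, with a median log2 fold change of -0.08. Among all tested genes, 6.67% were called higher and 9.15% lower. That median has no count filter and includes genes near the floor, such as TSM1 with 0.67 mean counts in mee45 and 0.33 in Col. The higher gene was TT5 (CHI1 in the tables), already described. The lower gene was AT4G26220, annotated as a caffeoyl-CoA O-methyltransferase-like protein, with 47.3 FPKM in mee45 and 74.8 FPKM in Col (authors' deposited table, adjusted p = 1.25e-05). Among the others are enzymes of the lignin branch, which this pathway map includes: HST had 144 FPKM in mee45 and 135 FPKM in Col, and CCOAOMT1 had 478 FPKM in mee45 and 548 FPKM in Col, and neither passed the test. A second flavonol synthase entry, FLS2, had 37.1 FPKM in mee45 and 30.4 FPKM in Col and did not pass either (authors' deposited table, adjusted p = 0.115). The LDOX-like neighbour AT4G22870 had no counts in either genotype.

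Genes next to the 10 on the chromosome were also looked up in the RefSeq annotation. Of the annotated neighbours and overlapping genes present in the deposited tables, only AT3G51230 was called. It lies 839 bases before TT6 on the other strand and was lower in mee45, at 76 mean counts against 123.7 in Col. Among all tested genes, 9.15% were called lower. A link between this call and TT6 was not tested.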
